A study of Mus musculus with 6 samples.

Results

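The 34 genes described here are transcripts that type I interferon induces in most mouse cells. They were chosen by name, with earlier results of these data known. Each symbol had exactly 1 row among the 55357 Ensembl genes of the deposited table. The test was run on the 15023 genes whose TPM averaged 1 or more, and all 34 were among them. TPM is a transcript abundance corrected for length and scaled to the same total in every library, so levels of different genes can be set side by side, but it keeps no read depth.

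RNA was measured in 6 subcutaneous tumours of C57BL/6J mice, each grown from 250000 injected KPC1242 cells, a mouse line of pancreatic ductal adenocarcinoma (PDAC). The FA group (n = 3) had folinic acid, a reduced folate, by gavage at 2 mg a day from day 8 to day 12, and the PBS group (n = 3) had phosphate-buffered saline on the same days. All tumours were taken on day 14. The labels give no age or sex of the mice, and whether the tumours of a group were from different mice is not stated, so p-values measure the spread between these tumours. KPC1242 is a single line grown under the skin rather than in the pancreas, and the tumours were not sorted, so every value mixes tumour, stromal and immune cells. FA replicate 3 stood apart from the other tumours over all genes tested: its correlations with them, across genes, which are not independent replicates, were 0.949 to 0.968, against 0.981 to 0.987 among the other 5.

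Type I interferons bind the receptor of IFNAR1 and IFNAR2, whose kinases JAK1 and TYK2 phosphorylate STAT proteins. STAT2 and IRF9 are subunits of the complex ISGF3, which binds the interferon-stimulated response element (ISRE) in promoters and switches on a large set of genes. Their products block viruses at entry, translation and genome copying, and some, such as IRF7 and USP18, feed back on the pathway itself. In tumours the same genes can be expressed by cancer cells and by infiltrating cells alike.

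Promoter sequences played no part in choosing the genes. RefSeq promoter sequences (build GRCm38.p6, not stated to be the authors' build) were found for 26 of the 34 genes, and the 250 bases before each start were searched on both strands for the core ISRE letters, GAAA, any 2 bases and GAAA again. They occurred for 11 of 26 genes (42.3%), against 3.46% of all 27025 genes with a promoter in that table and 2.98% of its 32851 promoters. The stretches below belong to genes whose values are followed in detail. They are printed 5′ to 3′ in the direction of transcription, all lie before the start, and capitals mark ISRE letters in either orientation. Ifit3 and Ifit3b, and Oas1a and Oas1g, are shown as pairs because their stretches are alike.
Isg15, chr4:156200845-156200926, minus strand: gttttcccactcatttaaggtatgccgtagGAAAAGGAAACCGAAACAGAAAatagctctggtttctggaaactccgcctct
Rsad2, chr12:26456533-26456602, minus strand: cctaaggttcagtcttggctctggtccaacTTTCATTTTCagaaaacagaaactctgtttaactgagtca
Ifit1, chr19:34640755-34640843, plus strand: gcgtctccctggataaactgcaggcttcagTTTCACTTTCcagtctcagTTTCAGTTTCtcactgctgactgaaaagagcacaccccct
Ifit3, chr19:34583343-34583446, plus strand: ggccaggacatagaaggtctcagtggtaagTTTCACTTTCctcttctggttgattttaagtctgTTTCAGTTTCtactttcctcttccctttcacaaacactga
Ifit3b, chr19:34607739-34607842, plus strand: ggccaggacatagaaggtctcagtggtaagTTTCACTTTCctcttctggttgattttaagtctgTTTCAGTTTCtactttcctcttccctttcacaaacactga
Oas1a, chr5:120907526-120907575, minus strand: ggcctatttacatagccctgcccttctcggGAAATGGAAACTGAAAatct
Oas1g, chr5:120887614-120887661, minus strand: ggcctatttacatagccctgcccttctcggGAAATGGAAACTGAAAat
In Isg15 3 overlapping copies lie within 78 bases of the start, and in Oas1a and Oas1g 2 overlapping copies end just before it. The Ifit3 and Ifit3b stretches were identical over 104 bases, and those of Oas1a and Oas1g over 48 bases. A match describes the letters only. No match, as for Ifit2 and Cmpk2, says nothing about whether ISGF3 binds there.

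The first question was how these genes stood in FA against PBS tumours. All 34 had a higher mean in FA tumours, where 50.7% of all genes tested did. No gene passed an adjusted p under 0.05 by limma (the background was 0% in each direction), and the adjusted p of every one of the 34 was 1. At an unadjusted p under 0.05 by limma, 6 of the 34 genes were higher, where 0.686% of all genes were: Isg15, Ifit2, Mx1, Mx2, Rsad2 and Cmpk2. At the same threshold 0 of the 34 were lower, where 0.592% of all genes were. In 5 genes, Isg15, Ifit2, Rsad2, Cmpk2 and Parp14, every FA tumour lay above every PBS tumour, where 2.48% of all genes did, and in 0 did every FA tumour lie below, where 2.22% did. The median log2 difference was 0.37 for the 34 genes and 0.0016 for all genes tested, on the log2(TPM + 1) scale, which understates differences of low genes. In whole tumours a smaller number of expressing cells and less RNA per cell cannot be told apart.

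Much of the difference rested on a single control tumour, PBS replicate 3. It had the lowest value of the 6 tumours for 32 of the 34 genes, where it was lowest for 15.7% of all genes. Without it 26 of 34 genes had a higher mean in FA (46.5% of all genes), the median log2 difference was 0.084, and 1 gene, Rsad2, had an unadjusted p under 0.05 by limma (0.373% of all genes were higher and 0.473% lower at that threshold). The count of 6 was 2 without FA replicate 1 (2.03% of all genes) and 1 without FA replicate 2 (0.493% of all genes). Without FA replicate 3, the tumour that stood apart over all genes, 34 of 34 had a higher mean (55.3% of all genes), the median was 0.28 and 7 had an unadjusted p under 0.05 by limma (1.83% of all genes). Leaving out a tumour cannot join groups that are separate: without PBS replicate 3 the same 5 genes were counted (4.23% of all genes, and 5.49% in the other direction), and the count was 9 without FA replicate 2 (4.78% of all genes), 11 without FA replicate 3 (11% of all genes) and 17 without PBS replicate 2 (5.9% of all genes). The mean log2(TPM + 1) over the 34 genes was 3.72, 3.63 and 3.55 for FA replicates 1 to 3. For PBS replicates 1 to 3 it was 3.39, 3.56 and 2.86. By this mean PBS replicate 2 was level with FA replicate 3 and below the other FA tumours. By the summed TPM of the 34 genes it was instead the highest tumour, at 919 TPM against 608 to 908 TPM in the others.

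**Figure D1:**
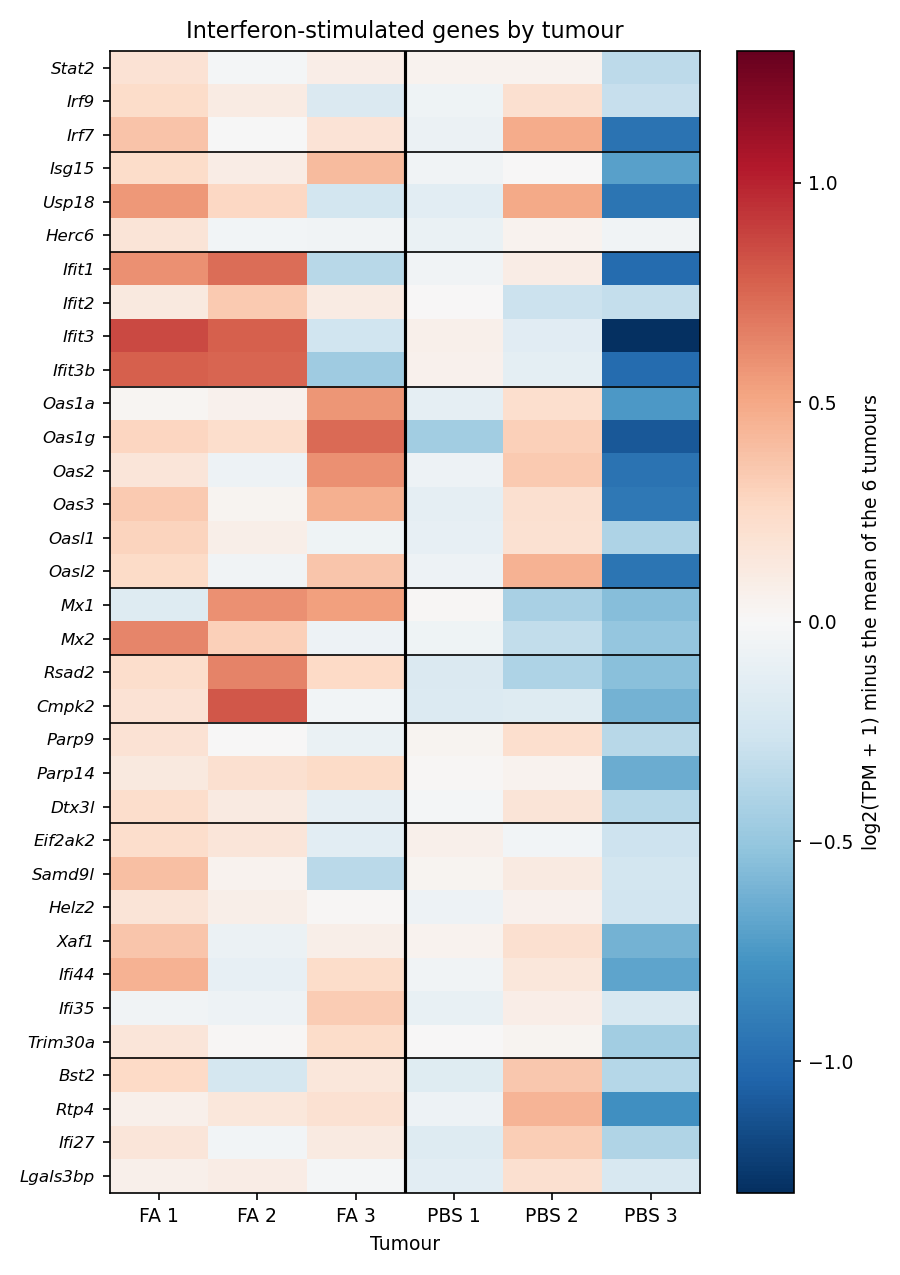
Heat map of the 34 genes (rows, grouped by role between horizontal lines) in 6 tumours (columns), coloured by log2(TPM + 1) minus the gene's mean over the 6 tumours. The PBS 3 column is the lowest of its row in 32 of 34 rows, and the FA 3 column is pale or blue for IFIT genes and red for Oas1a, Oas1g, Oas2 and Oas3.

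The 34 genes covered a wide range of levels. Lgals3bp, a secreted glycoprotein, had the highest mean at 309 TPM, followed by Bst2 (tetherin) at 89.2 TPM and Ifi27 at 75.4 TPM. At the other end, Oas3 averaged 1.81 TPM, Cmpk2 1.87 TPM and Mx1 2.16 TPM. The 10 genes averaging under 5 TPM had a median log2 difference of 0.61, the 11 genes from 5 to under 15 TPM one of 0.37, and the 13 genes of 15 TPM or more one of 0.16. All genes tested in those 3 ranges had medians of 0.039, 0.011 and -0.0078.

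The transcription factors of the pathway had overlapping groups. Stat2 (ENSMUSG00000040033), a subunit of ISGF3, was at 25.5, 21.8 and 23.7 TPM in FA replicates 1 to 3 and at 23.1, 23.0 and 17.4 TPM in PBS replicates 1 to 3. Irf9 (ENSMUSG00000002325), its DNA-binding subunit, was at 28.8, 26.1 and 21.1 TPM in FA and at 23.3, 28.2 and 19.5 TPM in PBS tumours. For both genes the groups overlapped and PBS replicate 3 was lowest, with log2 differences of 0.16 ± 0.13 and 0.10 ± 0.17 (SE). Irf7 (ENSMUSG00000025498), the factor that amplifies interferon alpha transcription, was at 14.5, 11.0 and 12.6 TPM in FA and at 10.4, 15.8 and 5.19 TPM in PBS tumours. Its highest and its lowest value were thus both in PBS tumours, 3.04-fold apart. Without PBS replicate 3 the differences were 0.036 for Stat2, -0.027 for Irf9 and -0.021 for Irf7.

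The ubiquitin-like protein ISG15 is attached to other proteins, by HERC6 as the ligase in mice, and removed by USP18, which also blocks IFNAR2 signalling. Isg15 (ENSMUSG00000035692) was at 17.7, 16.1 and 20.2 TPM in FA and at 14.4, 14.99 and 8.78 TPM in PBS tumours. All FA tumours were above all PBS tumours, by 0.50 ± 0.21 in log2 (95% interval 0.0050 to 0.99, unadjusted p = 0.0483, limma), and by 0.27 without PBS replicate 3. Usp18 (ENSMUSG00000030107) was at 11.2, 8.87 and 5.94 TPM in FA and at 6.45, 10.5 and 3.25 TPM in PBS tumours, so the groups overlapped widely. Its difference of 0.40 ± 0.38 was 0.022 without PBS replicate 3. Herc6 hardly varied, between 5.26 and 6.49 TPM over all 6 tumours, and was 1 of the 2 genes not lowest in PBS replicate 3.

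IFIT proteins bind viral RNA and hold back its translation. Ifit3 (ENSMUSG00000074896) had a log2 difference of 0.92 ± 0.44 (95% interval -0.13 to 1.96, unadjusted p = 0.0766, limma), and of 0.50 without PBS replicate 3. It was at 24.2, 22.9 and 10.7 TPM in FA and at 13.6, 11.6 and 4.67 TPM in PBS tumours. FA replicates 1 and 2 stood far above the rest, FA replicate 3 lay among the PBS values, and PBS replicate 3 was lowest. Ifit3b, at 7.77, 7.70 and 2.74 TPM in FA and at 4.33, 3.69 and 1.57 TPM in PBS tumours, had the same order of tumours. Of the 50-base windows of Ifit3 transcripts, 51.2% also occur in Ifit3b transcripts (GENCODE vM21), so reads of the pair can be split between them and the pair is not 2 independent readings. Ifit1 also separated FA replicates 1 and 2 from FA replicate 3, at 8.93, 9.87 and 4.13 TPM, against 5.35, 6.02 and 2.28 TPM in PBS tumours. The differences of Ifit1 and Ifit3b, 0.64 ± 0.39 and 0.72 ± 0.42, were 0.30 and 0.40 without PBS replicate 3.

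Ifit2 (ENSMUSG00000045932) did not have this order of tumours. It was at 4.09, 4.91 and 4.03 TPM in FA and at 3.68, 2.84 and 2.77 TPM in PBS tumours. The groups did not overlap, FA replicate 3 stayed close to FA replicate 1, and the difference was 0.39 ± 0.15 (95% interval 0.033 to 0.74, unadjusted p = 0.0365, limma). Without PBS replicate 3 it was 0.33. Ifit2 and Ifit3 are next to each other among protein-coding genes in GENCODE vM21, on the same strand.

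Viperin (Rsad2), which makes a chain-terminating nucleotide, and Cmpk2, the kinase that supplies its substrate, are neighbouring genes on opposite strands. Rsad2 (ENSMUSG00000020641) was at 2.66, 3.87 and 2.72 TPM in FA and at 1.74, 1.36 and 1.13 TPM in PBS tumours. It had the smallest p of the 34 genes (unadjusted p = 0.00493, limma), with a log2 difference of 0.76 ± 0.18 (95% interval 0.32 to 1.19) that was 0.67 without PBS replicate 3. Cmpk2 (ENSMUSG00000020638) was at 2.12, 3.77 and 1.67 TPM in FA and at 1.42, 1.43 and 0.79 TPM in PBS tumours, a difference of 0.64 ± 0.26 (unadjusted p = 0.0458, limma), and 0.49 without PBS replicate 3. Both genes were separate between the groups and highest in FA replicate 2, at levels of a few TPM.

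The Mx genes encode dynamin-like antiviral GTPases. C57BL/6 mice are known to carry a defective Mx1 allele, and GENCODE vM21 lists Mx2 as a polymorphic pseudogene, so these values speak of transcripts and not of working protein. Mx1 (ENSMUSG00000000386) was at 1.68, 3.55 and 3.37 TPM in FA and at 2.04, 1.26 and 1.06 TPM in PBS tumours, with FA replicate 1 inside the PBS range. Mx2 (ENSMUSG00000023341) was at 4.24, 3.20 and 2.24 TPM in FA and at 2.25, 1.71 and 1.38 TPM in PBS tumours, with FA replicate 3 just under PBS replicate 1. Their log2 differences were 0.64 ± 0.26 and 0.59 ± 0.22 (unadjusted p = 0.0484 and 0.0349, limma), and 0.52 and 0.48 without PBS replicate 3. Only 4.60% of the 50-base windows of Mx1 occur in Mx2.

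**Figure D2:**
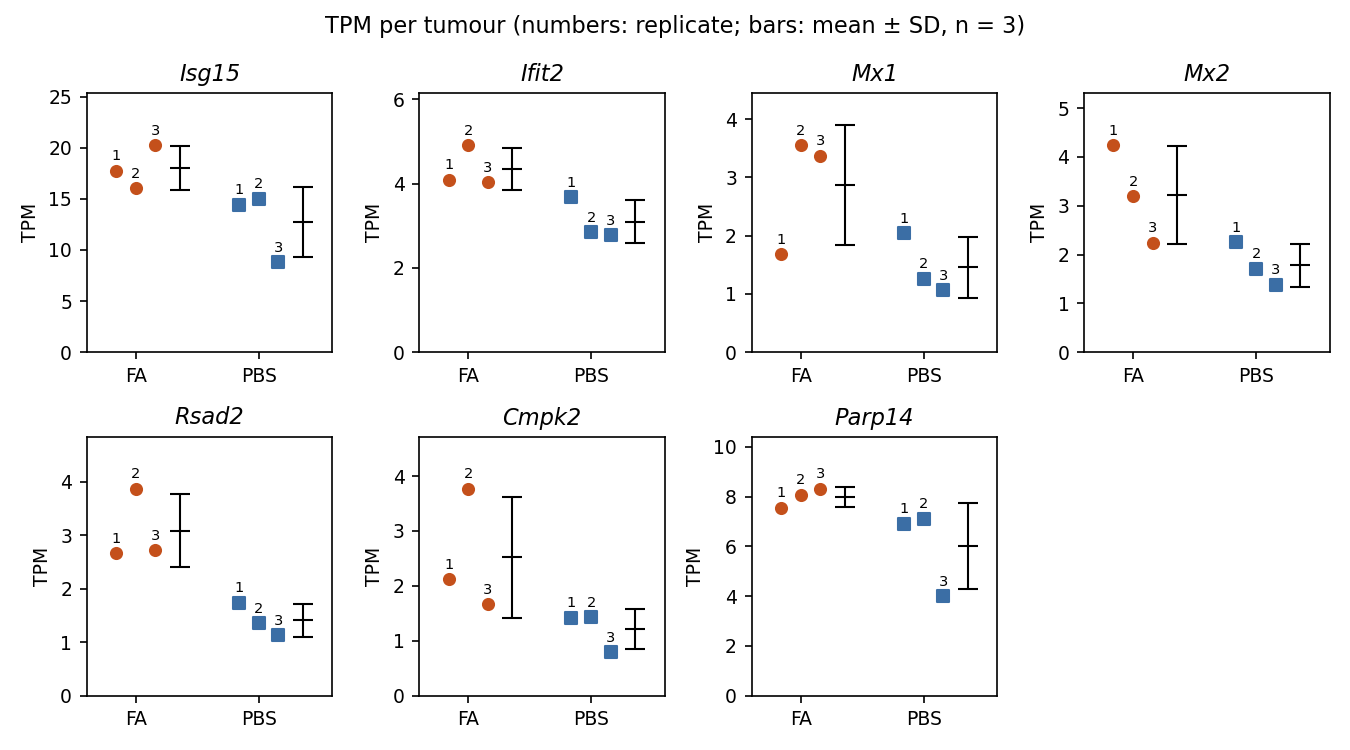
TPM (vertical axes, each from 0) of the 7 genes whose groups do not overlap or whose unadjusted p is under 0.05, for each FA (circles) and PBS (squares) tumour with its replicate number, and mean ± SD (n = 3) beside the points. Mx1 and Mx2 are the 2 genes shown whose groups overlap, and PBS 3 is the lowest point in all 7 panels.

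Oligoadenylate synthetases make the messenger that activates RNase L, and the OASL proteins are their relatives. The order of the FA tumours in Oas1a, Oas1g, Oas2 and Oas3 was not that of the IFIT genes: FA replicate 3 was the highest of all 6 tumours in each. Oas1g was at 2.82, 2.69 and 4.26 TPM in FA and at 1.31, 2.90 and 0.47 TPM in PBS tumours, a difference of 0.83 ± 0.36 (95% interval -0.038 to 1.69, unadjusted p = 0.0581, limma). Oas3, the lowest of the 34 genes, was at 2.40, 1.75 and 2.70 TPM in FA and at 1.47, 2.10 and 0.41 TPM in PBS tumours. In both genes PBS replicate 2 lay within the FA range, while PBS replicate 3 was at 22.3% and 23.0% of the mean of the other PBS tumours. Oas1a ranged from 6.29 to 9.65 TPM in FA and from 3.26 to 7.32 TPM in PBS tumours, and Oas2 from 2.13 to 3.98 TPM and from 0.69 to 3.16 TPM. The differences of Oas1a, Oas2 and Oas3 were 0.43 ± 0.28, 0.46 ± 0.36 and 0.56 ± 0.31. Without PBS replicate 3 they were 0.17, 0.089 and 0.24, and that of Oas1g was 0.49. Of the Oas1g windows, 54.1% occur in Oas1a transcripts, so reads of this pair can be shared too.

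Oasl1 and Oasl2, which lie side by side, were expressed at higher levels than the 4 Oas genes, and their groups overlapped. Oasl1 ranged from 15.7 to 20.2 TPM in FA and from 12.1 to 18.9 TPM in PBS tumours. Oasl2 ranged from 15.5 to 20.7 TPM in FA and from 7.75 to 22.2 TPM in PBS tumours. Their differences of 0.21 ± 0.17 and 0.38 ± 0.34 were 0.058 and -0.0053 without PBS replicate 3.

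PARP9 and DTX3L form an ADP-ribosyl and ubiquitin ligase complex, and PARP14 is a mono-ADP-ribosyl transferase. Their 3 genes follow one another in the genome. Parp14 (ENSMUSG00000034422) was at 7.56, 8.08 and 8.32 TPM in FA and at 6.92, 7.12 and 4.01 TPM in PBS tumours. The groups did not overlap, but the gap to the nearest PBS tumour was small, and the difference of 0.39 ± 0.20 (95% interval -0.093 to 0.87, unadjusted p = 0.0971, limma) was 0.16 without PBS replicate 3. Dtx3l ranged from 12.1 to 15.5 TPM in FA and from 9.95 to 14.8 TPM in PBS tumours, and Parp9 from 21.1 to 25.6 TPM and from 17.2 to 26.2 TPM. Both overlapped, with differences of 0.15 ± 0.16 and 0.072 ± 0.16, and of 0.0079 and -0.090 without PBS replicate 3.

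The cytosolic effectors had overlapping groups in every case. Eif2ak2 encodes PKR, the kinase that stops translation on double-stranded RNA, and it ranged from 14.6 to 19.0 TPM in FA and from 13.2 to 16.9 TPM in PBS tumours, with a difference of 0.16 ± 0.14. Samd9l, a translation inhibitor, was at 42.0, 32.9 and 24.8 TPM in FA and at 32.6, 34.6 and 26.9 TPM in PBS tumours, so its lowest and highest values were both in FA tumours and its difference was 0.056 ± 0.20. Over all 6 tumours Helz2 lay between 8.80 and 12.2 TPM, Xaf1 between 9.97 and 20.6 TPM, Ifi35 between 18.5 and 27.4 TPM and Trim30a between 3.53 and 6.30 TPM. The differences of Helz2, Xaf1, Ifi35 and Trim30a lay between 0.15 and 0.27. Ifi44, one of the 5 lowest genes, was at 3.32, 1.93 and 2.74 TPM in FA and at 2.07, 2.49 and 0.96 TPM in PBS tumours, with a difference of 0.39 ± 0.27. None of these 7 genes had an unadjusted p under 0.05 by limma, and without PBS replicate 3 their differences lay between -0.048 (Samd9l) and 0.14 (Ifi44).

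The 4 genes for membrane and secreted proteins were all highest in PBS replicate 2. Lgals3bp was at 322, 328 and 303 TPM in FA and at 279, 355 and 265.8 TPM in PBS tumours. Bst2, which tethers virus particles to the cell surface, was at 105, 74.7 and 97.3 TPM in FA and at 78.7, 112 and 67.4 TPM in PBS tumours, and Ifi27 at 83.3, 72.6 and 80.6 TPM against 66.1, 93.4 and 56.4 TPM. In all 3 genes the PBS tumours spread on both sides of the FA tumours. Rtp4, a Golgi chaperone, spread likewise from 5.79 to 14.97 TPM in PBS and only from 11.3 to 12.5 TPM in FA tumours. The differences of these 4 genes were 0.093, 0.12, 0.16 and 0.28, and without PBS replicate 3 they were 0.012, -0.038, 0.0021 and -0.051.

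**Figure D3:**
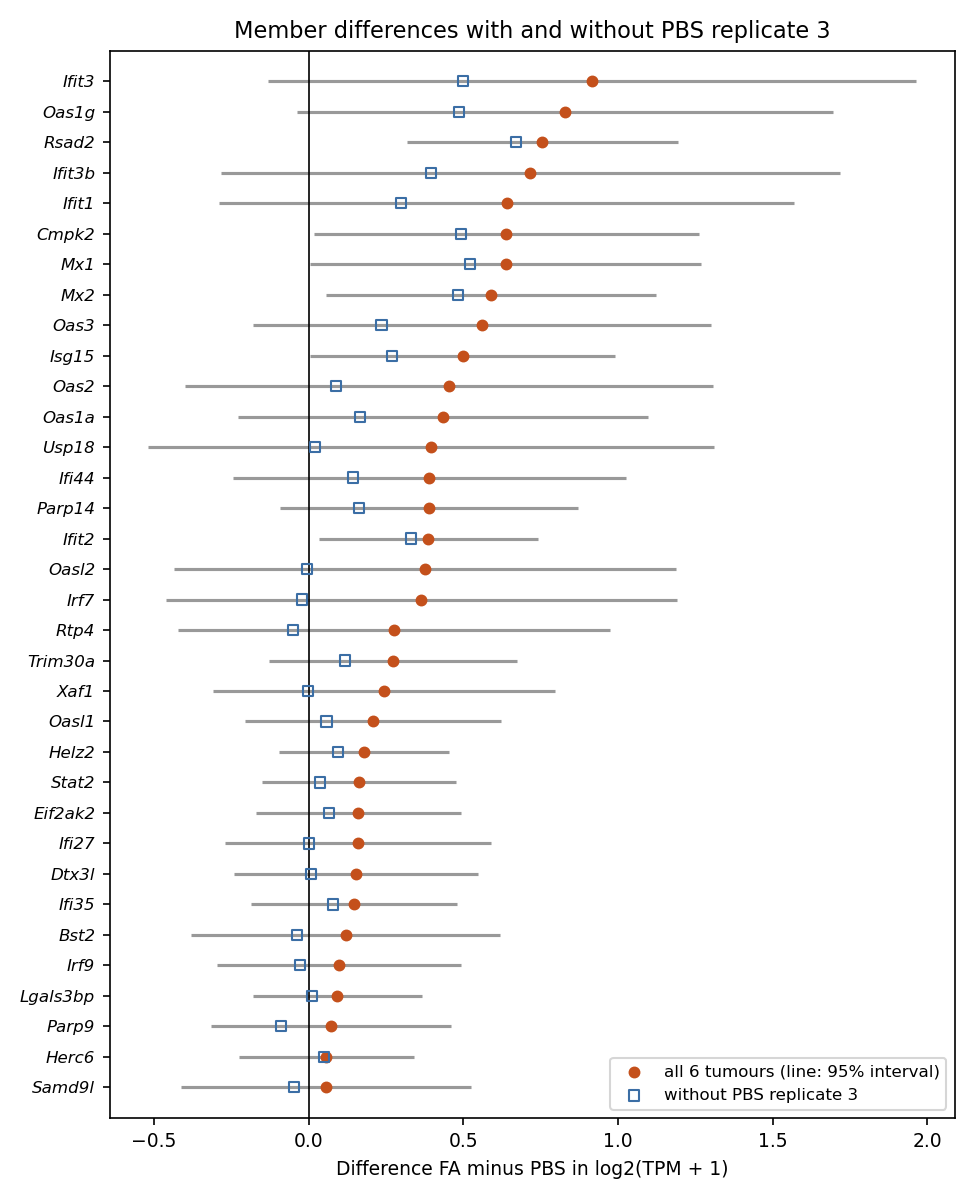
Difference between FA and PBS tumours in log2(TPM + 1) for each gene with its 95% interval (filled points, all 6 tumours) and the same difference without PBS replicate 3 (open squares). The intervals of 6 genes lie above 0, and 8 of the 34 open squares lie below 0.

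The tumours did not stand in a single order over the 34 genes. Measured against the mean log2 value of the other 2 PBS tumours, PBS replicate 3 was lower in 34 of 34 genes, with a median of -0.47, and in 8930 of all 15023 genes, with a median of -0.032. PBS replicate 2 was the highest of all 6 tumours for 7 genes, Irf7, Oasl2, Parp9, Bst2, Rtp4, Ifi27 and Lgals3bp (15% of all genes). FA replicate 3 was at 0.354 to 0.661 times the mean of the other FA tumours in 7 genes, Usp18, Ifit1, Ifit3, Ifit3b, Mx2, Cmpk2 and Samd9l. It was at 1.51 to 1.66 times that mean in Oas1a, Oas1g and Oas2. The share of all genes at such ratios was not counted. Measured against the mean log2 value of the other FA tumours, FA replicate 3 was higher in 15 of the 34 genes (44.7% of all genes). It was the lowest of all 6 tumours for 1 gene (37.3% of all genes) and the highest for 8 (29.3% of all genes). FA replicate 2 was the highest for 5 (14% of all genes) and FA replicate 1 for 14 (18.7% of all genes).

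**Figure D4:**
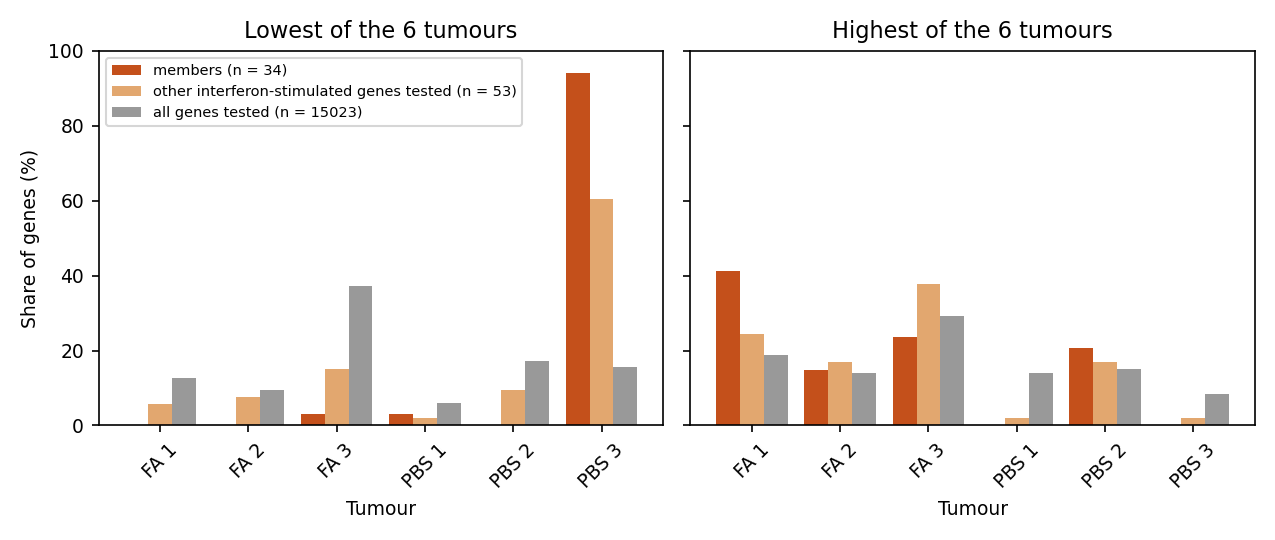
Share of genes (%) for which each tumour is the lowest (left) or the highest (right) of the 6, for the 34 genes, 53 other interferon-stimulated genes and all 15023 genes tested. PBS 3 is the lowest tumour for 94.1% of the 34 genes and 60.4% of the 53, against 15.7% of all genes.

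The ligands were almost not seen. Of 18 interferon genes looked up, 13 were listed at 0 in all 6 tumours, Ifna4 among them, and none averaged 1 TPM. Ifne, the highest of the 18 by mean, was above 0 in all 6 tumours. It ranged from 0.20 to 0.52 TPM in FA and from 0.27 to 0.60 TPM in PBS tumours. Ifnz was above 0 in all 6 as well, from 0.07 to 0.13 TPM in FA and from 0.09 to 0.22 TPM in PBS tumours. Ifnb1 was listed at 0.17 TPM in FA replicate 1, 0.18 TPM in PBS replicate 1 and 0 in the other 4 tumours. Ifng was listed at 0.03 TPM in FA replicate 2 and at 0 in the other 5. The number of reads behind these values is unknown.

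Genes of the receptor and its kinases gave overlapping groups. Ifnar1 was at 42.8, 48.5 and 41.3 TPM in FA and at 42.5, 39.4 and 40.3 TPM in PBS tumours, and Ifnar2 at 44.4, 41.9 and 48.7 TPM against 44.2, 43.2 and 44.1 TPM. The intervals of their log2 differences ran from -0.090 to 0.32 and from -0.15 to 0.22. Jak1 and Tyk2 differed by 0.0082 ± 0.11 and 0.082 ± 0.076.

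Lists of inhibitors and inducers gave no gene with an unadjusted p under 0.05 by limma, in 9 and 18 genes tested. Over all genes 0.686% were higher and 0.592% lower at that threshold. The inhibitor list also held Isg20, an interferon-stimulated gene not known as an inhibitor of the pathway. Socs1, which blocks JAK kinases, was at 1.99, 2.04 and 2.20 TPM in FA and at 2.14, 1.93 and 1.59 TPM in PBS tumours. Among the inducers the RNA helicase gene Dhx58 had the largest difference, 0.48 ± 0.24. It was at 3.50, 2.66 and 5.54 TPM in FA and at 2.88, 2.51 and 1.91 TPM in PBS tumours, with FA replicate 2 inside the PBS range. Of the 18 inducers, 16 had a higher mean in FA (50.7% of all genes) and 9 were lowest in PBS replicate 3 (15.7% of all genes).

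Other interferon-stimulated genes, listed in the same way by name, had mostly higher means in FA too. Of 53 tested, 41 had a higher mean in FA (50.7% of all genes), and the median log2 difference was 0.19. PBS replicate 3 was lowest for 32 of them (15.7% of all genes). By limma 1 of them, Sp140, was higher at an unadjusted p under 0.05 (0.686% of all genes), by 0.33 ± 0.12. In 5 every FA tumour was above every PBS tumour (2.48% of all genes). Sp140, a nuclear body protein gene, was at 8.92, 7.63 and 7.16 TPM in FA and at 6.28, 5.78 and 6.15 TPM in PBS tumours, so PBS replicate 3 did not stand apart there. Without PBS replicate 3 the median of the 53 was 0.073 and 32 had a higher mean (46.5% of all genes).

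A further list held genes that interferon gamma induces strongly. Of 17 tested, 16 had a higher mean in FA with all 6 tumours (50.7% of all genes). Again 16 did without PBS replicate 3 (46.5% of all genes), and the medians were 0.41 and 0.25. PBS replicate 3 was the lowest tumour for 13 of the 17 (15.7% of all genes). In 6 of the 17 every FA tumour was above every PBS tumour (2.48% of all genes). Gbp2, a guanylate-binding protein gene, was at 10.4, 8.66 and 8.94 TPM in FA and at 7.45, 6.47 and 4.86 TPM in PBS tumours, a difference of 0.52 ± 0.16 (unadjusted p = 0.0159, limma). Cxcl10, which encodes a chemokine for T cells, was at 6.54, 15.5 and 7.56 TPM in FA and at 6.37, 3.79 and 3.52 TPM in PBS tumours, with FA replicate 2 far above the others. Cxcl10 differed by 0.91 ± 0.34 and Gbp7 by 0.41 ± 0.17 (unadjusted p = 0.0313 and 0.0438, limma). All of Gbp2, Cxcl10 and Gbp7 were lowest in PBS replicate 3. Without it their differences were 0.38, 0.78 and 0.28 (unadjusted p = 0.0444, 0.0956 and 0.137, limma). Whether this list and the 34 genes differ was not tested.

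Cell type markers were set beside the low values of PBS replicate 3 and the split of FA replicate 3. The label of ductal carcinoma was checked against epithelial markers: all 8 were present, with summed levels from 5406 to 5878 TPM in FA and from 4913 to 5670 TPM in PBS tumours, and 5146 TPM in PBS replicate 3. The 10 macrophage markers summed to 561, 605 and 1059 TPM in FA and to 676, 602 and 542 TPM in PBS tumours. PBS replicate 3 had the lowest macrophage sum, with 7 of the 10 markers lowest there. The next lowest sum was that of FA replicate 1, which had the highest mean log2(TPM + 1) over the 34 genes. The conventional dendritic cell sum was also lowest in PBS replicate 3, at 13.55 TPM against 14.05 to 31.48 TPM in the other tumours. Of its 7 markers 4 averaged 1 TPM or more, and only 1 of these, Ccr7, was lowest there. Itgax, the highest of them, was lowest in FA replicate 1, at 7.44 TPM against 7.76 TPM in PBS replicate 3. FA replicate 3 had the highest macrophage, endothelial (215 TPM against 51.9 to 94.2 TPM), fibroblast (6467 TPM against 1810 to 3496 TPM) and skeletal muscle sums (1103 TPM against 12.7 to 160 TPM). Of 6 plasmacytoid dendritic cell markers, 5 averaged under 1 TPM, and Siglech was between 0.04 and 0.28 TPM. Of 9 T and NK cell markers 8, and of 4 B cell markers all 4, averaged under 1 TPM. The part of these cells in the differences of the 34 genes was not tested.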

How the data were processed

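The authors deposited 1 table of TPM for the 6 tumours. Per the submitters' processing notes FastQC, STAR, featureCounts and RSEM were used; their versions and roles, and the build and annotation, were not given in the sources used here. The sample descriptions tied each column to a tumour. Their prefix differs between FA and PBS, so whatever it marks cannot be told apart from treatment. Read depth is unknown.

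From these values log2(TPM + 1) was fitted in R 4.3.3 with limma 3.58.1 (two-sided, FA against PBS, no covariate, variance trend) on genes averaging 1 TPM or more, with Benjamini-Hochberg adjustment over all of them and a threshold of 0.05. The fit was tested on simulated data. A log2 difference is given ± its standard error, with a 95% interval. The genes, lists and tests were chosen with earlier results of these data known. Genes for which every tumour's value is printed were set by rule: those with separate groups or an unadjusted p under 0.05, the 5 highest and 5 lowest by mean, 5 pathway genes fixed by name, and, outside the 34, fixed genes and up to 4 of smallest p in each list; Ifit1, Ifit3, Ifit3b and Oas1g were added after their values were seen. Rigi was read under its older symbol Ddx58, and Mnda had no row. Of the receptor and signalling list, 1 gene is not reported here.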

Additional observations from a re-analysis of the deposited data

How the results depend on the processing

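Pseudocounts, 3 rescalings, no variance trend, array weights, other filters and leaving out single tumours were tried; leaving out FA replicate 3 and PBS replicate 3 together was chosen after seeing the data. All genes tested of the 34 had a higher mean in FA under every setting that kept all 6 tumours. No setting gave one of them an adjusted p under 0.05 by limma. Over all genes, 2 were called higher without the filter, and leaving out 1 tumour gave 0 to 1 called lower. The 6 genes with an unadjusted p under 0.05 were 1 without the filter (1.37% of all tested), 1 among the 24 genes averaging 5 TPM or more (0.546%), and 1 to 7 on leaving out 1 tumour (0.373% to 2.03%). The 5 genes with separate groups were 2 at 5 TPM (2.14% of all genes), 5 to 17 on leaving out 1 tumour (4.23% to 11%) and 11 without both tumours (14.8%). The median difference was 0.084 to 0.54 on leaving out 1 tumour. With all 6 tumours the gene of largest difference was Ifit3 as reported, but Oas1g with a pseudocount of 0.5 or 0.1 and under quantile normalization. The array weights stopped before their tolerance was met.

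On leaving out 1 tumour the sign of 9 log2 differences turned: Herc6 (-0.012 to 0.097) without FA replicate 1, Parp9 (-0.090 to 0.20) and Samd9l (-0.12 to 0.25) without FA replicate 1 and again without PBS replicate 3, and Irf9 (-0.027 to 0.23), Irf7 (-0.021 to 0.70), Oasl2 (-0.0053 to 0.70), Xaf1 (-0.0019 to 0.41), Bst2 (-0.038 to 0.32) and Rtp4 (-0.051 to 0.57) without PBS replicate 3. Without both tumours they did for Irf7 (-0.021), Oas1a (-0.010), Oas2 (-0.097), Oasl2 (-0.089), Parp9 (-0.030), Ifi35 (-0.049), Bst2 (-0.081), Rtp4 (-0.082) and Ifi27 (-0.015). With the replicate number as a block, 6 of the 34 genes were higher at an unadjusted p under 0.05 by limma (0.586% of all genes). At an adjusted p under 0.05 the count was 0 (0% of all genes). Both counts, though not necessarily the genes, were those found without the block. Deviations of same-numbered tumours from their group means had correlations of -0.21, 0.053 and -0.022. With 3 tumours in a group these cannot exclude a pairing, and the labels do not state one. Causes of these changes were not tested, and no statement on depth can be made from TPM.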
